A study of Mus musculus with 10 samples.

Results

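The arrays compared here are those of Sox17+/- gallbladder and of wild type cystic duct from ICR mouse embryos at 15 days post coitum (dpc), 2 arrays of each, and they are 4 of the 10 arrays in the series. They were taken by their titles. The series also holds wild type gallbladder of ICR (2 arrays) and wild type and Sox17+/- gallbladder of the strain B6 (2 arrays each), whose levels are given beside the results as references. ICR is an outbred stock, and Sox17+/- embryos carry 1 altered copy of Sox17. The labels do not describe the altered allele, do not say whether tissue of several embryos was pooled and name no animal or litter. Genotype and organ differ together in this comparison, since no Sox17+/- duct is among the 10 arrays, so the part of each cannot be told apart. The question it addresses is what separates the Sox17+/- gallbladder from the duct when the wild type gallbladder is not used.

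The gallbladder is a blind sac that buds from the embryonic foregut beside the liver, and the cystic duct is the tube that joins it to the bile duct. Both have an epithelium that came from the endoderm, the inner germ layer, and a coat of mesenchyme in which smooth muscle forms. Sox17 is an endoderm transcription factor that marks the gallbladder primordium and sets it apart from the pancreatic and hepatic buds. Hedgehog ligands made by such epithelia signal to the surrounding mesenchyme, where the receptor Ptch1 and the transcription factors Gli1 and Gli2 act.

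Each array gave a log2 signal for 45101 probe sets, sets of short DNA probes against a given transcript. On this scale 1 unit is a doubling of signal. After quantile normalization 14689 genes were tested, each read by 1 probe set. The Sox17+/- gallbladder pair differed by a median of 0.192 log2 and by over 1 log2 in 128 genes (r = 0.987 across genes), whereas the cystic duct pair differed by a median of 0.542 and by over 1 log2 in 3561 genes (r = 0.899). In the duct, 2049 of these were lower and 1512 higher in replicate 2, whose deposited signals also had the narrowest spread of the 10 arrays (interquartile range 2.75, against up to 3.84). The ICR wild type gallbladder pair, used as a reference, differed by over 1 log2 in 611 genes, 540 of them higher in replicate 2. The excess of signal at the 3′ over the 5′ end of the Gapdh transcript, a measure of RNA quality, was 0.43 and 0.60 log2 in the Sox17+/- pair and 0.92 and 0.31 in the duct pair. For Actb it was 0.86 and 1.05 against 1.03 and 1.19. Differences below are Sox17+/- gallbladder minus cystic duct, and errors are standard errors (SE) of limma, a linear model that shares variance between genes. Precision is limited by the number of arrays, and the p-values measure only the spread between these samples. The series calls them biological replicates.

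No gene passed at an adjusted p of 0.05 (limma with Benjamini-Hochberg adjustment; 0.00% of genes tested), and the smallest adjusted p was 0.230, shared by 23 genes. At an unadjusted p under 0.05 the limma fit listed 1532 genes (10.4%), of which 864 were higher (5.88%) and 668 lower (4.55%) in the Sox17+/- gallbladder. That split was 821 and 391 with the values as deposited, and 1192 and 333 with arrays centred on their medians. Both Sox17+/- arrays lay above both duct arrays in 3681 genes (25.1%) and below both in 2898 (19.7%), here called groups that do not overlap. With a difference over 1 log2 added, 686 genes were higher (4.67%) and 603 lower (4.11%). A limma fit of all 10 arrays, which pools the wide duct pair with the narrower gallbladder pairs, called 621 genes higher (4.23%) and 444 lower (3.02%). It called 0 in either direction once the duct arrays had a weight of their own. The values below are therefore descriptions of 2 arrays against 2, and no listed gene passed over all genes tested.

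Sox17 itself did not separate the groups. On the probe set that reads it here, its log2 signal was 7.65 and 7.90 in Sox17+/- gallbladder and 8.28 and 7.63 in cystic duct, with 9.52 and 9.24 in wild type gallbladder. The Sox17+/- and duct arrays overlapped, and both pairs lay below the wild type gallbladder pair. The difference was -0.18 log2 with a 95% interval from -1.06 to 0.70 (limma adjusted p = 0.852), which leaves room for a difference of a doubling in the duct's favour. Its sign changed with arrays centred on medians (0.09) and without duct replicate 1 (0.14). Its cross-hybridizing probe set gave 9.15 and 9.58 in Sox17+/- gallbladder, 9.01 and 9.84 in duct, and 11.00 and 11.23 in wild type gallbladder. The labels do not show if either probe set reads the altered copy.

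Cited1, a transcriptional coregulator, showed a smaller step from the duct than from the wild type gallbladder. Its signal was 7.50 and 7.67 in Sox17+/- gallbladder, 8.54 and 8.51 in duct, and 10.79 and 10.92 in wild type gallbladder. The groups did not overlap, and the Sox17+/- pair was the lowest of the 3. Against the duct the difference was -0.94 log2 (SE 0.28, limma adjusted p = 0.355; 0.038 in the fit of all 10 arrays). Against the wild type gallbladder, in a fit of those 4 arrays, it was -3.27 (SE 0.14, limma adjusted p = 0.0128), 1 of the 2 genes that passed there (0.0136% of genes tested). Both comparisons use the same Sox17+/- arrays.

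Of 15 tested genes of the Hedgehog pathway, 10 lay above 0 and 5 below, with a median of 0.39 log2 against 0.04 over all genes. Their groups did not overlap in 7 genes with higher (46.7%) and 0 with lower values in Sox17+/- gallbladder, against 25.1% and 19.7% of all genes. Without duct replicate 1 the median was 0.19 and without duct replicate 2 it was 0.60. Shh, the secreted ligand, was the second gene that passed between Sox17+/- and wild type gallbladder (-3.24, SE 0.13, limma adjusted p = 0.0128). Its signal was 8.36 and 8.56 in Sox17+/- gallbladder and 7.90 and 9.62 in duct, against 11.71 and 11.69 in wild type gallbladder. The Sox17+/- values lay between the 2 duct arrays, which themselves stood 1.72 log2 apart. The difference was -0.30 with a 95% interval from -1.71 to 1.11 (limma adjusted p = 0.846), so a difference of over 3-fold in the duct's favour is inside the interval. Ihh, another ligand of the family, stood at 5.25 and 5.10 against 5.55 and 4.80, and its interval ran from -0.99 to 0.99.

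Hhip, which captures Hedgehog ligand at the cell surface, and Ptch1, the receptor, are both targets of the pathway. Hhip read 6.57 and 6.30 in Sox17+/- gallbladder and 6.34 and 6.97 in duct, with a mean of 8.34 in wild type gallbladder. The Sox17+/- and duct arrays overlapped, and the difference was -0.22 (95% interval -1.24 to 0.79). Its other 3 probe sets gave 0.18, -0.39 and -0.46. Ptch1 read 10.17 and 10.67 against 9.66 and 10.42, a difference of 0.38 (SE 0.33), and its other probe sets gave 0.04 and -0.58.

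Dhh, another Hedgehog ligand, stood at 0.41 (SE 0.42) with overlapping groups. Of the Gli transcription factors, Gli3 overlapped too, at 8.78 and 8.46 against 7.86 and 8.73 (0.33, SE 0.37), while Gli1 and Gli2 did not. Gli2 read 8.65 and 8.80 in Sox17+/- gallbladder and 7.91 and 7.45 in duct, a difference of 1.05 (SE 0.30), with 0.73 on its other probe set. Gli1, itself a target, read 7.01 and 7.17 against 6.50 and 6.03, a difference of 0.82 (SE 0.38), with a wild type gallbladder mean of 7.93. Scube2, which helps release lipid-bearing Hedgehog ligand, had the largest difference of the list at 1.60 (SE 0.42). Its signal was 6.90 and 7.15 in Sox17+/- gallbladder and 5.78 and 5.06 in duct. Disp1, a transporter that exports the ligand, stood at 0.85 (SE 0.36) and at 0.12 on its other probe set. The limma adjusted p was 0.342 for Gli2 and 0.311 for Scube2 in the fit of 4 arrays, and 0.0224 and 0.0198 in that of 10.

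**Figure D1:**
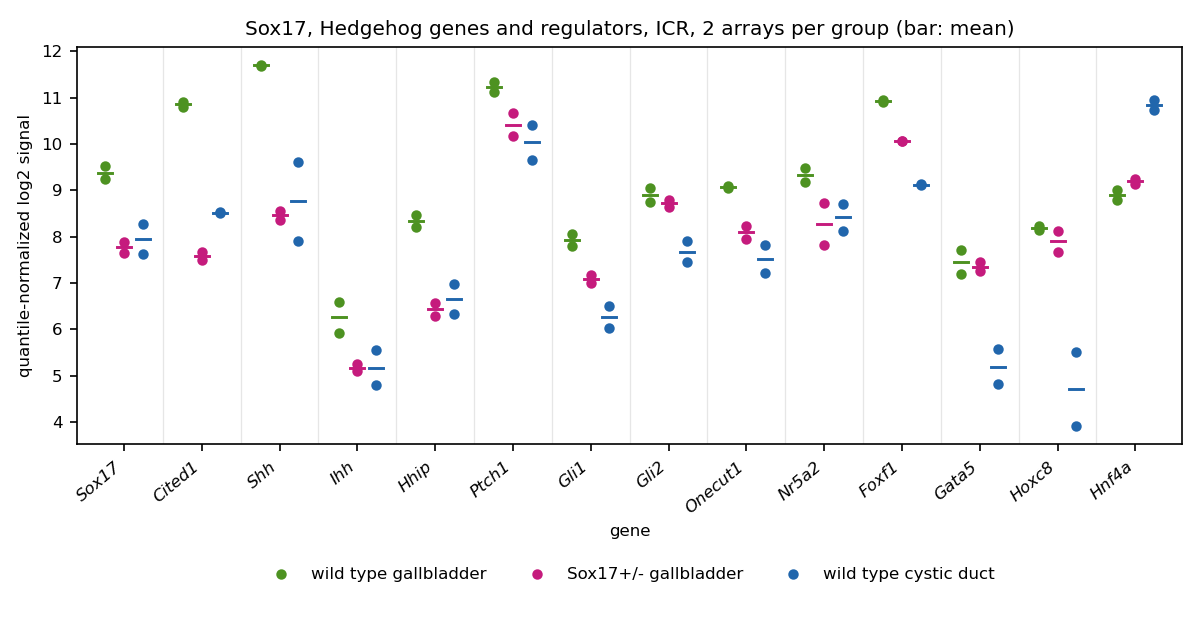
Quantile-normalized log2 signal (vertical axis) of Sox17, Hedgehog genes and transcription factors in ICR wild type gallbladder (green), Sox17+/- gallbladder (pink) and wild type cystic duct (blue); points are single arrays, 2 per group, and bars are group means. For Sox17, Shh and Hhip the pink and blue points overlap below the green ones, whereas for Gli2, Gata5 and Hoxc8 the pink points lie near the green ones and above the blue.

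Among 22 tested regulators of the foregut endoderm and biliary tree, 11 lay above 0 and 11 below, with a median of 0.03 (0.20 and 0.12 without duct replicate 1 or 2). The groups did not overlap in 8 higher (36.4%) and 3 lower genes (13.6%), against 25.1% and 19.7% of all genes. Hnf4a, a nuclear receptor that drives hepatocyte genes, was the lowest of the list. It read 9.14 and 9.24 in Sox17+/- gallbladder and 10.73 and 10.95 in duct, a difference of -1.64 (SE 0.21, limma adjusted p = 0.230), with -0.58 to -1.11 on its other 3 probe sets. Klf5, an epithelial Krüppel-like factor, read 9.58 and 9.60 against 8.60 and 8.62, a difference of 0.98 (SE 0.22), but its other probe sets gave 1.33 and -0.49. Pdx1, the pancreatic and duodenal homeobox factor, stood at 5.44 and 6.30 against 4.84 and 4.32 in duct and a mean of 4.26 in wild type gallbladder. Its difference was 1.29 (SE 0.44), but -0.09 on the other probe set. Duct replicate 2 and the wild type gallbladder mean lay under 4.46, the level below which dim genes were left out. For Sox9, a factor of duct epithelium, the values were 8.07 and 8.37 against 7.67 and 6.53, a difference of 1.12 (SE 0.46), and for Hhex, a homeobox factor of the early liver bud, the difference was 0.07 (SE 0.23). Onecut1, a homeobox factor of the biliary tree, read 7.96 and 8.24 against 7.23 and 7.83, below the wild type gallbladder mean of 9.07. The nuclear receptor Nr5a2 stood at -0.15 (SE 0.41), with overlapping groups and a wild type gallbladder mean of 9.33 against 7.82 and 8.72 in the Sox17+/- arrays. These list members other than Hnf4a, Klf5 and Cited1 were chosen after their values were seen.

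Mesenchymal regulators of the visceral organs were split, with 9 of 18 above 0 and a median of 0.05 (-0.13 and 0.15 without duct replicate 1 or 2). The groups did not overlap in 7 higher (38.9%) and 4 lower genes (22.2%), against 25.1% and 19.7% of all genes. Foxf1, a forkhead factor of gut mesenchyme and a Hedgehog target, read 10.06 and 10.06 in Sox17+/- gallbladder and 9.12 and 9.13 in duct. That pair lay between the duct and the wild type gallbladder mean of 10.93, at 0.94 above duct (SE 0.21, limma adjusted p = 0.263), although the other probe set gave -0.12. Gata5, a zinc-finger factor, read 7.46 and 7.25 against 5.58 and 4.81 (2.16, SE 0.43; 0.57 on the other probe set), with a wild type gallbladder mean of 7.46. Hand2, a basic helix-loop-helix factor of mesenchyme and autonomic neurons, read 11.14 and 10.92 against 10.39 and 10.47 (0.60, SE 0.20), and its other probe sets gave 0.62 and 0.86.

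Hox genes, which give position along the body axis, had a median of 0.29 over 18 tested genes, with 8 higher (44.4%) and 2 lower genes (11.1%) whose groups did not overlap, against 25.1% and 19.7% of all genes. Without duct replicate 1 the median was 0.06 and without duct replicate 2 it was 0.31. Hoxc8 had the largest difference. Its signal was 8.12 and 7.68 in Sox17+/- gallbladder and 3.91 and 5.52 in duct, and the wild type gallbladder mean was 8.19. The difference was 3.19 log2 (SE 0.61, 9.10-fold, limma adjusted p = 0.239). Duct replicate 1 lay under 4.46, the level below which dim genes were left out. The duct pair stood 1.61 log2 apart, so the size is uncertain. Hoxd8 read 8.08 and 8.15 against 5.99 and 6.91 (1.66, SE 0.42), but 0.33 on its other probe set, and Hoxc4 stood at 1.16 (SE 0.42). Neighbours did not all follow, since Hoxc9 read 7.05 and 6.44 against 6.55 and 8.47 in duct, with overlapping groups and a difference of -0.76 (SE 0.68).

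By the smallest p among genes that differed by over 1 log2 with no overlap, 6 genes were named in each direction, and all 12 had a limma adjusted p of 0.230. In the fit of 10 arrays their adjusted p ran from 0.00454 to 0.0364. Of the 6 higher in Sox17+/- gallbladder, 5 stood near their wild type gallbladder level. The exception was Cym, the milk-clotting stomach protease chymosin. It read 10.01 and 10.32 in Sox17+/- gallbladder, 7.23 and 7.41 in duct, and a mean of 6.85 in wild type gallbladder. Duct and wild type gallbladder were thus both below the Sox17+/- pair, by 2.85 log2 in the case of the duct (SE 0.26, 7.20-fold). In B6, Cym had a mean of 8.93 in Sox17+/- and 6.56 in wild type gallbladder.

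The other 5 were Cthrc1, Tgfbi, Tpm2, Ccl11 and C1qtnf3. Cthrc1, a secreted protein of collagen-producing cells, read 10.75 and 10.55 in Sox17+/- gallbladder and 8.06 and 8.55 in duct (2.34, SE 0.26), with a wild type gallbladder mean of 10.29. Tgfbi, a matrix protein induced by TGF-beta, read 11.99 and 11.88 against 10.42 and 10.12 (1.66, SE 0.21), and its other probe sets gave 0.64 to 1.07. Tpm2, a muscle tropomyosin, read 12.38 and 12.54 against 10.49 and 10.89 (1.77, SE 0.22). In all 3 the lowest Sox17+/- array lay at least 1 log2 above the highest duct array. The other probe sets of Tpm2 gave 1.55, 0.66 and -0.38. Ccl11, the eosinophil chemokine eotaxin, read 7.11 and 7.04 against 4.34 and 4.00, and C1qtnf3, a secreted protein with a complement C1q domain, read 5.47 and 5.80 against 2.81 and 3.35. Both were near the wild type gallbladder means of 6.97 and 5.66. In the duct both genes lay under the level of 4.46 at which dim genes were left out, so they were tested only because of their gallbladder signal and no size is given for their difference.

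The 6 lower genes are transcribed in liver. Aadac, a microsomal deacetylase, read 8.41 and 7.94 in Sox17+/- gallbladder and 11.12 and 11.05 in duct (-2.91, SE 0.25). Slc27a2, a fatty acid and bile acid acyl-CoA synthetase, read 7.82 and 7.44 against 10.78 and 10.44 (-2.98, SE 0.27). Ugt2b36, a glucuronosyltransferase of a large family with near-identical copies, read 6.75 and 6.81 against 9.35 and 9.71 (-2.75, SE 0.29). Each duct array lay over 2 log2 above each Sox17+/- array for these 3. Pzp, a protease inhibitor of plasma, read 9.69 and 9.23 against 11.93 and 11.65 (-2.32, SE 0.25), and Cps1, which starts the urea cycle, read 9.005 and 8.16 against 11.77 and 11.47 (-3.03, SE 0.33). Apoh, a plasma glycoprotein that binds phospholipid, read 11.25 and 10.92 against 13.35 and 12.99 (-2.09, SE 0.23), but its other probe set gave -0.14. In ICR wild type gallbladder the means of Pzp, Cps1 and Apoh were 6.84, 7.75 and 8.88, below those of the Sox17+/- pair. B6 did not show this for all of them. There the wild type and Sox17+/- means were 8.89 and 9.12 for Pzp, 6.95 and 6.31 for Cps1, and 10.80 and 10.78 for Apoh.

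**Figure D2:**
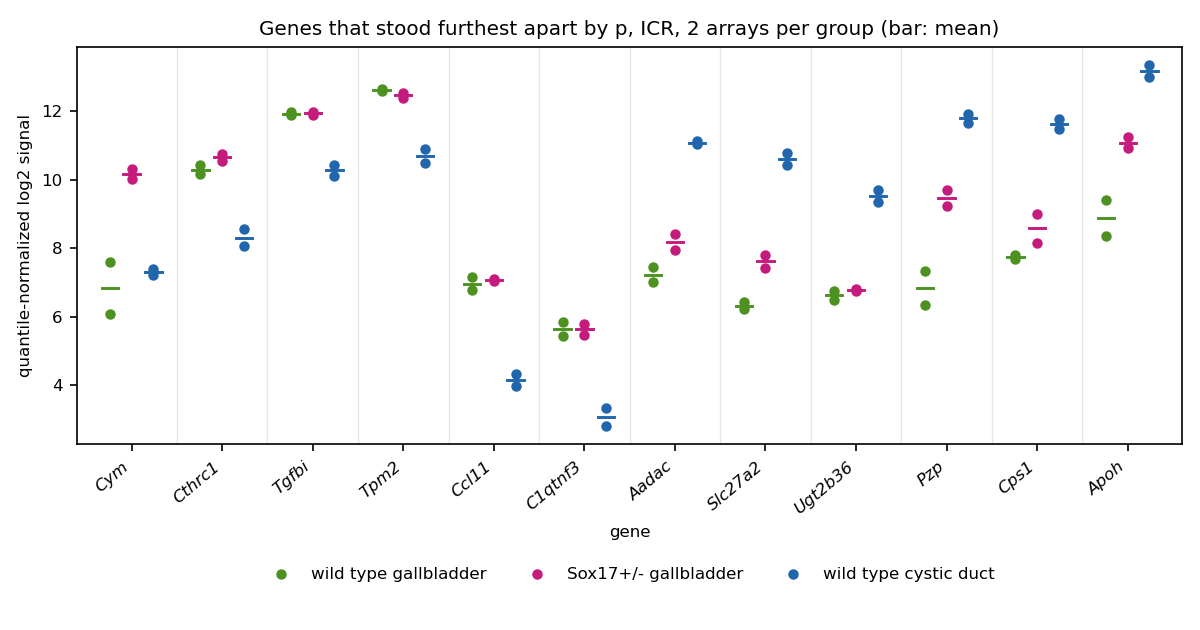
Quantile-normalized log2 signal (vertical axis) of the 6 genes higher and the 6 lower in Sox17+/- gallbladder with the smallest p; points are single ICR arrays of wild type gallbladder (green), Sox17+/- gallbladder (pink) and wild type cystic duct (blue), 2 per group, and bars are group means. Pink and blue points are apart for all 12 genes, and Cym is the one higher gene whose pink points also stand well above the green ones.

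Hepatocyte genes lay on the duct side without exception. All 21 tested genes were below 0, with a median of -2.19 log2 against 0.04 over all genes, and in all 21 the groups did not overlap (19.7% of all genes lay lower without overlap). At an unadjusted p under 0.05 limma listed all 21, against 4.55% of all genes. The fit of 10 arrays called 15 lower, against 3.02% of all genes. The median was -1.71 without duct replicate 1 and -2.62 without duct replicate 2, and -1.86 to -2.18 with the 3 other scalings. Differences ran from -0.52 for Afp, the fetal albumin relative alpha-fetoprotein, to -3.07 for the cytochrome Cyp3a11. Apoa1, the main protein of high-density lipoprotein, read 11.79 and 10.71 in Sox17+/- gallbladder and 14.06 and 13.45 in duct (-2.50, SE 0.41), and its other 3 probe sets gave -2.11 to -2.47. Alb, serum albumin, read 14.28 and 13.95 against 14.82 and 14.82 (-0.70, SE 0.21), also near the top of the signal range. In Cyp3a11 the values were 7.62 and 7.63 against 11.28 and 10.11 (SE 0.41).

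These transcripts were not at 0 in the Sox17+/- gallbladder. Summed over the 21 genes on a linear scale, the signal was 72460 and 56200 in Sox17+/- gallbladder and 205700 and 146800 in duct, while wild type gallbladder of ICR gave 37130 and 28020. For B6 the wild type sums were 66380 and 47780, and the Sox17+/- sums 61140 and 63360. The Sox17+/- arrays of ICR thus lay between the other 2 ICR groups without overlap. In whole tissue, fewer cells of a type and less RNA per cell cannot be told apart, and the part of attached liver in any difference from the duct was not tested.

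The promoters of 4 of these genes are shown because their letters share a short run that the transcription factor HNF1 is known to bind as part of its site. The run searched was GTTAAT on both strands, so ATTAAC counts too, in the 250 bases before each gene's start in RefSeq's promoter table (GRCm38.p6). It was found in 6 of the 18 hepatocyte genes with an entry and in 7.49% of the 27025 genes with one. A match is a run of letters and not a measured site. The last 100 bases before the start are printed 5′ to 3′ on the gene's own strand with the run in capitals, for Alb (chr5:90460770-90460869, plus strand), Fga (chr3:83026053-83026152, plus strand), Fgb (chr3:83049864-83049963, minus strand) and Serpina1b (chr12:103738190-103738289, minus strand).
Alb: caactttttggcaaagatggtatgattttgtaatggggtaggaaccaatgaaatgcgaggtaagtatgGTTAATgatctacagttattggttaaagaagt
Fga: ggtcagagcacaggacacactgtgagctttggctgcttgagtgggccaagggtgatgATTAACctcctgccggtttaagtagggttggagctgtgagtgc
Fgb: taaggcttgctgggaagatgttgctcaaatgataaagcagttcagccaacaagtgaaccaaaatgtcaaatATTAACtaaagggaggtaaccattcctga
Serpina1b: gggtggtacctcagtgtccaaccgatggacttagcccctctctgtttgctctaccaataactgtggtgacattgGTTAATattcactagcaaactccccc
The run begins at base -32 from the start in Alb, -43 in Fga, -29 in Fgb and -26 in Serpina1b. Fgb, a fibrinogen chain, read 10.45 and 9.52 in Sox17+/- gallbladder and 12.57 and 12.06 in duct (-2.33, SE 0.36). Fga, another chain of fibrinogen, read 10.99 and 9.68 against 12.94 and 11.83 (-2.05, SE 0.54), and the antitrypsin Serpina1b read 12.15 and 11.53 against 13.71 and 12.84 (-1.43, SE 0.36).

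Erythroid genes, which mark red cell precursors such as those of the fetal liver, followed the same direction with a wider spread. All 13 tested genes lay below 0 with a median of -1.89, and the groups did not overlap in 12 (92.3%, against 19.7% of all genes). The duct pair itself differed by over 1 log2 in 11 of them. Without duct replicate 1 the median was -1.05 and without duct replicate 2 it was -2.94. With the values as deposited it was -1.70 and with median centring -1.61, and the lower genes without overlap then numbered 8 under each. Klf1, the erythroid Krüppel-like factor, read 9.71 and 8.61 in Sox17+/- gallbladder and 12.56 and 11.27 in duct (-2.76, SE 0.54). Gata1, a master regulator of red cells, read 6.90 and 6.28 against 9.71 and 8.49 (-2.52, SE 0.50), and Epor, the erythropoietin receptor, 7.23 and 6.82 against 8.92 and 8.49 (-1.68, SE 0.34). The summed linear signal was 6442 and 3630 against 35360 and 13470, and 4042 and 1790 in wild type gallbladder. Alas2, the first enzyme of erythroid heme synthesis, read 9.19 and 9.04 against 11.35 and 9.60. The globin Hba-a1 lay under the filter on dim genes. Probe sets assigned to several genes were not used, so that reading does not show that globin RNA was absent.

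Of 23 leukocyte genes, 2 were higher (8.7%) and 7 lower (30.4%) without overlap, against 25.1% and 19.7% of all genes. The list had a median of -0.24 log2. That median was 0.06 with arrays centred on medians, so its sign depends on the scaling, and -0.14 and -0.54 without duct replicate 1 or 2. The 3 genes with the smallest p were the neutrophil granule genes Mpo, Prtn3 and Elane. Mpo, myeloperoxidase, read 8.78 and 7.17 in Sox17+/- gallbladder and 10.84 and 10.04 in duct (-2.46, SE 0.58), and Prtn3, proteinase 3, read 8.59 and 6.87 against 10.39 and 9.24 (-2.08, SE 0.65). Elane, neutrophil elastase, stood at -1.10 (SE 0.40). Csf1r, the receptor of macrophage growth factor, stood at -0.24 (SE 0.22) and the complement gene C1qa at 0.01 (SE 0.26). These 2 genes were chosen after their values were seen and do not stand for macrophage genes as a set.

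Smooth muscle genes had the highest median of the 23 lists. The median of its 23 tested genes was 1.41 log2, 22 were above 0, and the groups did not overlap in 19 higher genes and 1 lower (25.1% and 19.7% of all genes). The fit of 10 arrays called 14 higher, against 4.23% of all genes. Without duct replicate 1 the median was 1.03, without duct replicate 2 it was 1.51, and the other scalings gave 1.37 to 1.66. Cnn1, the contractile regulator calponin, read 8.13 and 8.45 in Sox17+/- gallbladder and 5.39 and 6.14 in duct (2.52, SE 0.42). Actg2, the smooth muscle gamma-actin, read 10.95 and 11.17 against 8.40 and 9.43 (2.15, SE 0.37). Myh11, the smooth muscle myosin, read 9.21 and 9.60 against 7.03 and 7.72 (2.03, SE 0.35), but its other probe set gave -0.27. The limma adjusted p of Cnn1 was 0.237 and that of Myh11 0.239.

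Acta2, the alpha-actin of smooth muscle, read 13.64 and 13.78 in Sox17+/- gallbladder, 11.95 and 12.58 in duct, and a mean of 14.04 in wild type gallbladder. Its difference was 1.44 (SE 0.26), and 2 dimmer probe sets gave 0.21 and 0.03. Myocd, the coactivator that switches on contractile genes, read 8.80 and 8.34 against 6.71 and 7.63 (1.41, SE 0.42). Sox17+/- minus wild type gallbladder had a median of -0.24 log2 over the 23 genes, and wild type gallbladder minus duct 1.33. Myh11 and Myocd were lower in Sox17+/- than in wild type gallbladder (-0.63 and -0.78). Actg2 was higher (1.24), but its wild type arrays read 8.85 and 10.79. The summed signal was 50950 and 53690 in Sox17+/- gallbladder, 55040 and 60680 in wild type gallbladder, and 15560 and 25620 in duct. The receptor Cckar, through which cholecystokinin contracts the gallbladder, stood nearer to duct than to wild type gallbladder. It read 6.18 and 6.92 in Sox17+/- gallbladder and 5.04 and 6.81 in duct, with overlapping groups (0.62, SE 0.67) and a wild type gallbladder mean of 8.46. Adcy8, an adenylyl cyclase, was the 1 gene below 0, and both Sox17+/- values lay under the filter level of 4.46. Its signal was 4.01 and 4.03 against 4.44 and 6.89 in duct, a pair 2.44 log2 apart, and 5.89 on average in wild type gallbladder. Cckar and Adcy8 were chosen after their values were seen.

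**Figure D3:**
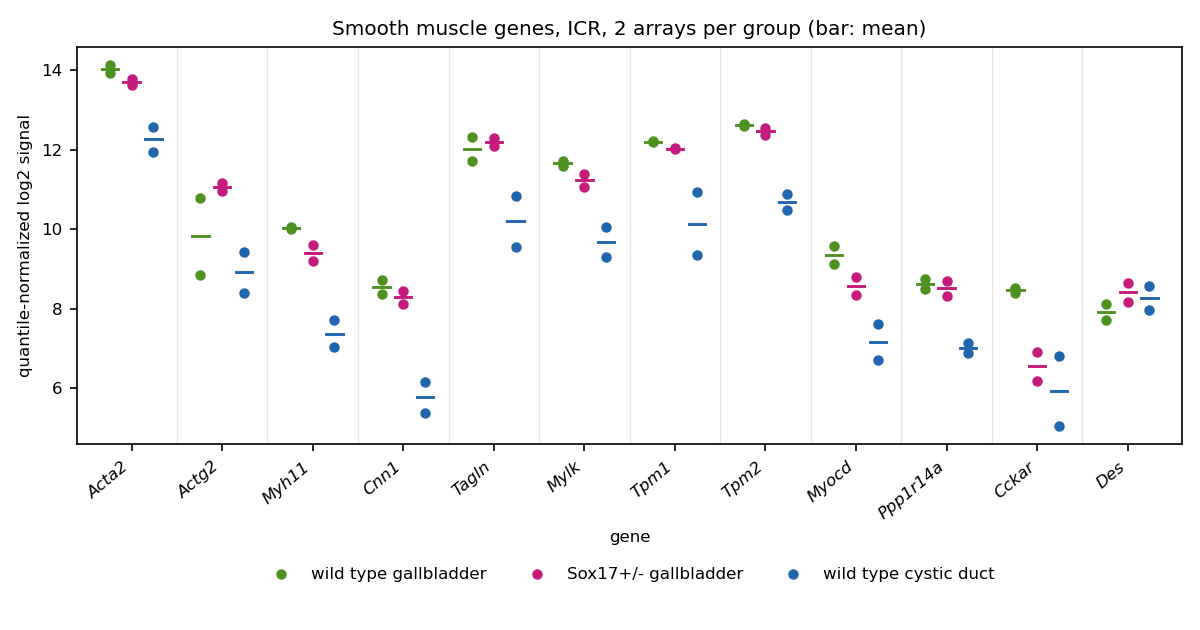
Quantile-normalized log2 signal (vertical axis) of 12 smooth muscle genes in ICR wild type gallbladder (green), Sox17+/- gallbladder (pink) and wild type cystic duct (blue); points are single arrays, 2 per group, and bars are group means. Pink points lie above both blue points in 10 genes, while for Cckar and the intermediate filament gene Des pink and blue overlap.

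Fibroblast and matrix genes lay above 0 in 27 of 29, with a median of 0.57 log2. Without overlap 16 were higher (55.2%) and 0 lower, against 25.1% and 19.7% of all genes. The median was 0.22 without duct replicate 1 and 1.05 without duct replicate 2. Mfap5, a protein of elastic microfibrils, read 9.49 and 9.66 in Sox17+/- gallbladder and 5.14 and 7.33 in duct, a pair 2.19 log2 apart (3.34, SE 0.71, 10.1-fold; 2.93 on the other probe set). Dpt, the matrix protein dermatopontin, read 10.37 and 10.86 against 7.94 and 9.08 (2.11, SE 0.42), and Ogn, the proteoglycan osteoglycin, read 12.02 and 12.07 against 9.83 and 10.72 (1.77, SE 0.32; 2.01 on the other probe set). Fibrillar collagens ranged from 0.22 (SE 0.21) for Col3a1 and 0.52 (SE 0.20) for Col1a2 to 0.81 (SE 0.18) for Col5a1 and 0.87 (SE 0.23) for Col5a2. Col1a2 and Col3a1 read 14.06 to 14.71 on the 4 arrays, close to the highest deposited signal on any array, 15.15. The receptor Pdgfrb stood at -0.16 (SE 0.22), so genes of this list did not shift alike.

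Mesothelial genes, which mark the outer lining of the organ, lay above 0 in 14 of 16, with a median of 0.82 log2. Without overlap 11 were higher (68.8%) and 0 lower, against 25.1% and 19.7% of all genes. Krt19, a keratin of both mesothelium and biliary epithelium, read 10.05 and 10.43 in Sox17+/- gallbladder and 8.94 and 9.23 in duct (1.15, SE 0.25). Upk3b, a uroplakin of mesothelium, read 10.40 and 10.09 against 9.33 and 9.35 (0.91, SE 0.22), and Msln, mesothelin, 7.73 and 7.48 against 6.42 and 6.38 (1.21, SE 0.35). Only 2 of the 16 differed by over 1 log2 within the duct pair.

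Wnt pathway genes lay above 0 in 18 of 24, with a median of 0.45 log2. Without overlap 12 were higher (50%) and 2 lower (8.33%), against 25.1% and 19.7% of all genes. The ligand Wnt5a read 8.98 and 9.38 in Sox17+/- gallbladder and 7.14 and 7.70 in duct (1.76, SE 0.33), with 0.92 to 1.64 on its other 3 probe sets. Wnt5b, a related ligand chosen after its values were seen, read 7.93 and 7.88 against 6.48 and 5.42 (1.96, SE 0.47). Dkk3, a secreted protein of the Dickkopf family, read 9.41 and 9.53 against 8.04 and 7.99 (1.45, SE 0.24), and Sfrp2, which binds Wnt ligands, 11.90 and 11.78 against 9.89 and 10.77 (1.51, SE 0.32). Sfrp5, a relative of Sfrp2, was the lowest of the list at 6.30 and 5.96 against 6.16 and 7.93, with overlapping groups (-0.91, SE 0.64). Axin2, a target of the canonical pathway, stood at 0.04 (SE 0.33), with a 95% interval from -0.79 to 0.87.

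Growth factor signalling of the BMP, FGF and IGF families had a median of 0.36 log2 over 32 genes, with 12 higher (37.5%) and 4 lower (12.5%) without overlap, against 25.1% and 19.7% of all genes. Without duct replicate 1 the median was 0.09 and without duct replicate 2 it was 0.45. Fst, the activin antagonist follistatin, read 8.81 and 9.10 in Sox17+/- gallbladder and 6.89 and 5.41 in duct (2.80, SE 0.54; 1.18 on the other probe set). Igf1, insulin-like growth factor 1, read 12.33 and 11.98 against 10.89 and 11.59 (0.92, SE 0.29), and its other 3 probe sets gave 1.16 to 1.28. Igfbp7, a binding protein of these factors, stood at 0.86 (SE 0.21), with 0.52 and -0.37 on its other probe sets. In the Notch pathway the median was -0.08 over 18 genes, with 8 above 0, and 4 higher (22.2%) and 3 lower (16.7%) without overlap. It turned to 0.10 with the values as deposited, and was -0.19 and 0.04 without duct replicate 1 or 2. Hey2, a Notch target, read 5.92 and 5.72 against 4.63 and 4.17. Its duct mean of 4.40 lay under the filter level of 4.46, so no size is given for its difference. The ligand Dll1 read 8.16 and 7.84 against 7.23 and 6.71 (1.02, SE 0.36), and the DNA-binding partner Rbpj stood at 0.51 (SE 0.22). The lowest of the list was the endothelial ligand Dll4, at 6.21 and 6.12 against 6.80 and 7.45 (-0.96, SE 0.41).

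Epithelial genes were mixed, with 16 of 27 biliary epithelium genes above 0 and a median of 0.10 log2 (-0.003 and 0.03 without duct replicate 1 or 2). Without overlap 6 were higher and 6 lower (22.2% each, against 25.1% and 19.7% of all genes). The defining epithelial markers were present in both organs. Epcam, an epithelial adhesion molecule, read 11.43 and 12.12 in Sox17+/- gallbladder and 11.10 and 11.49 in duct, Cdh1, E-cadherin, 10.49 and 11.40 against 10.81 and 11.06, and Krt8, a simple-epithelium keratin, 11.77 and 11.81 against 11.86 and 11.33. All 3 overlapped between the groups, unlike Krt19 above. Lgals4, a galectin of gut epithelium, stood at 1.22 (SE 0.45). Ambp, the precursor of alpha-1-microglobulin, which liver also makes, read 11.30 and 11.45 against 13.45 and 12.56 (-1.63, SE 0.32).

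Genes of bile transport and secretion had a median of -0.38 log2, with 5 of 18 above 0. Without overlap 0 were higher and 10 lower (55.6%), against 25.1% and 19.7% of all genes. The 3 with the smallest p are also active in liver. Abcb11, the bile salt export pump, read 6.06 and 6.04 in Sox17+/- gallbladder and 8.47 and 7.56 in duct (-1.97, SE 0.43). The water channel Aqp8 read 6.15 and 5.81 against 8.88 and 7.15 (-2.03, SE 0.62), and Car2, a carbonic anhydrase, 12.17 and 11.51 against 14.05 and 12.60 (-1.49, SE 0.50). Cftr, the chloride channel of biliary epithelium, read 5.32 and 6.29 against 4.96 and 6.10, with overlapping groups. The hepatocyte sums were higher in the duct as well, and their part in the values of Ambp, Abcb11, Aqp8 and Hnf4a was not tested.

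Cell cycle genes lay below 0 in 27 of 31, with a median of -0.49 log2. Without overlap 0 were higher and 16 lower (51.6%), against 25.1% and 19.7% of all genes. The median was -0.19 without duct replicate 1 and -0.74 without duct replicate 2. With the values as deposited it was -0.24 and with median centring -0.15, and the lower genes without overlap then numbered 6 under each. Mcm3, a subunit of the replicative helicase, read 10.28 and 10.03 in Sox17+/- gallbladder and 10.93 and 10.99 in duct (-0.80, SE 0.20). Ccne1, cyclin E1, read 8.21 and 7.92 against 9.17 and 9.01 (-1.03, SE 0.27), and the spindle protein Nusap1 10.03 and 10.10 against 10.80 and 10.83 (-0.75, SE 0.19; 0.01 on the other probe set). The hepatocyte and erythroid sums given above were higher in the duct too, and their part in the cell cycle values was not tested.

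Markers of other tissues that a dissection could carry were also read. Of the pancreas list 13 genes were tested and 9 lay under the filter, among them Ptf1a and Gcg. Its median was -0.03 (-0.37 and 0.10 without duct replicate 1 or 2), with 3 higher and 3 lower without overlap (23.1% each, against 25.1% and 19.7% of all genes). Chga, a granule protein of endocrine cells, read 5.49 and 6.00 in Sox17+/- gallbladder and 6.84 and 7.81 in duct (-1.58, SE 0.48). Ctrb1, chymotrypsinogen, stood at 1.01 (SE 0.38) and the islet factor Isl1 at -0.60 (SE 0.34). The median of 14 skeletal muscle genes was 0.64 log2, with 8 higher (57.1%) and 0 lower without overlap, against 25.1% and 19.7% of all genes. Without duct replicate 1 it was 0.20 and without duct replicate 2 it was 0.53. Their summed signal was 1648 and 1155 against 953.5 and 1015, and Tnnc2, a fast troponin, read 6.49 and 5.89 against 5.37 and 4.23 (1.39, SE 0.51). Duct replicate 2 of Tnnc2 lay under the filter level of 4.46. The cardiac actin Actc1 and the myosin light chain Myl4, stood at 1.27 (SE 0.48) and 1.12 (SE 0.39), the latter at -0.72 on its other probe set. The intestine and stomach list, which holds Cym, had a median of -0.29 over 15 genes, with 5 higher (33.3%) and 4 lower (26.7%) without overlap. Its median was -0.14 and 0.07 without duct replicate 1 or 2. Cym, described above, had its largest difference. The 2 others with the smallest p were Agr2, a protein of mucus-secreting cells, at 5.84 and 5.83 against 4.24 and 4.09, both under the filter level of 4.46 in duct (0.18 on the other probe set), and the trefoil peptide Tff3 at 7.23 and 6.99 against 9.56 and 8.61 (-1.98, SE 0.40). Of 18 neural and neural crest genes 8 lay above 0, with 4 higher and 4 lower without overlap (22.2% each). Their median was -0.25, which was -0.47 without duct replicate 1 and 0.14 without duct replicate 2. Gap43, a protein of growing axons, stood at 1.38 (SE 0.37), and Ednrb, the endothelin receptor of neural crest, at 0.76 (SE 0.29). The lowest of the list was Gfra1, a receptor subunit for the factor GDNF, at 5.94 and 5.51 against 7.38 and 6.22 (-1.07, SE 0.51).

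**Figure D4:**
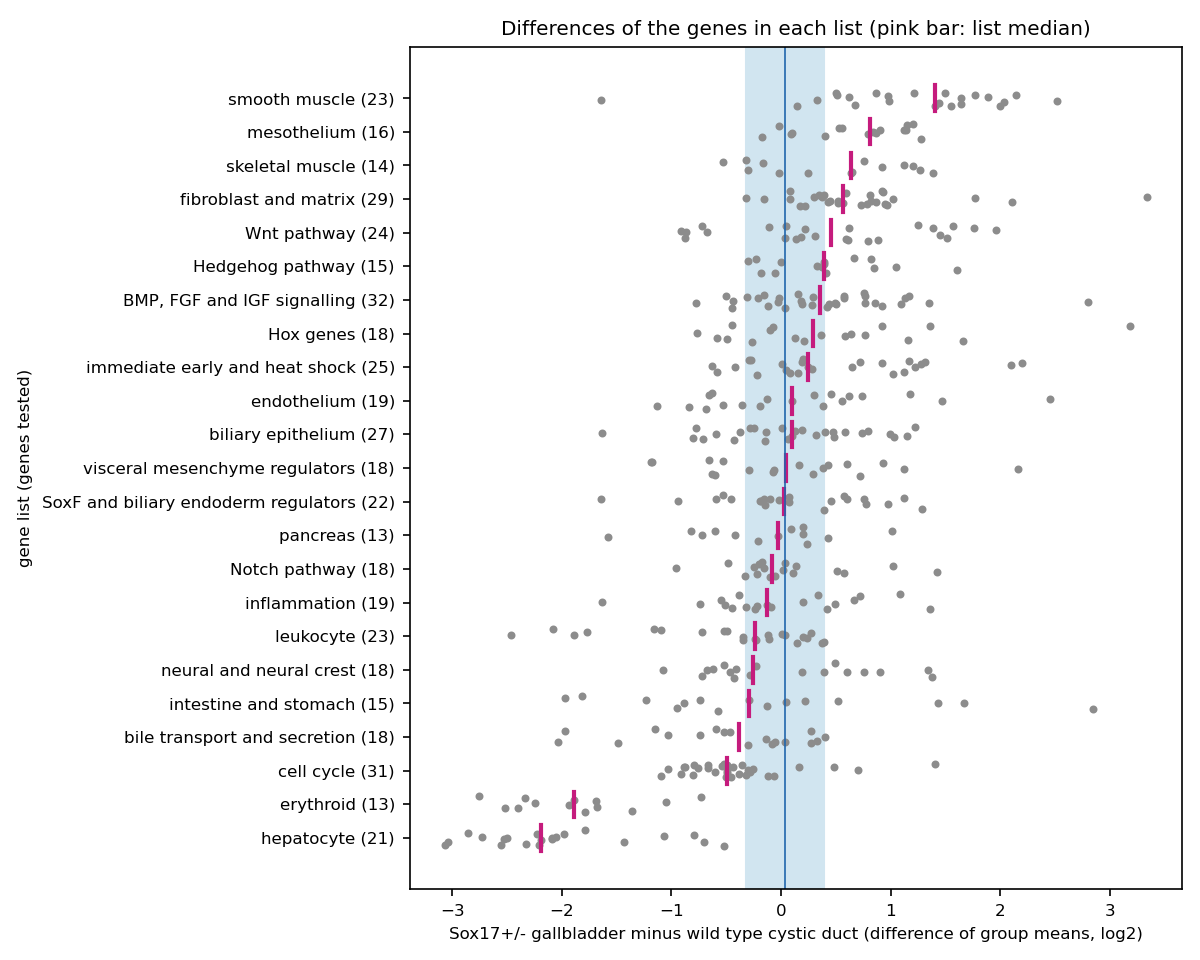
Difference of group means, Sox17+/- gallbladder minus wild type cystic duct in log2 units (horizontal axis), for each tested gene (grey points) of the 23 lists (vertical axis, genes tested in brackets); pink bars are list medians, the blue line is the median of all 14689 genes (0.035) and the blue band their quartiles (-0.317 to 0.392). Hepatocyte and erythroid genes lie to the left of the band and most smooth muscle genes to its right.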

How the data were processed

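Gallbladder and cystic duct of mouse embryos were profiled on Affymetrix arrays. The log2 signals per probe set are those deposited by the authors (2.20 to 15.15), and no label or header used here names their background correction or summarization. Groups come from the sample titles, the label tags for stage and genotype being swapped in the records. Apart from 64 controls, the 45101 probe sets comprised 34945 with 1 gene in the platform table, which were used, 932 with several and 9160 with none. Entrez identifiers of 34741 were in the reference gene table (GRCm38.p6) and 204 were not. The 10 arrays were quantile normalized. Each of 18193 genes was read by its brightest probe set (cross-hybridizing types only where no other was present), and those under the 30th percentile of mean signal (4.46) were left out, leaving 14689. Limma 3.58.1 (R 4.3.3) was fitted to the 4 compared arrays with a variance trend (2 residual degrees of freedom, 5.70 with the prior), two-sided, with Benjamini-Hochberg adjustment over all genes tested. The scripts were tested on simulated data. Python 3.11.15, pandas 2.3.3 and matplotlib 3.10.9 made tables and figures.

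Named genes were Sox17, then per direction up to 12 genes called, filled to 6 by the smallest p among genes over 1 log2 apart without overlap, then up to 3 per list by p, without predicted or numbered gene models, 76 in all. Other genes were chosen after their values were seen. The arrays compared and the 23 gene lists (556 entries, 523 measured, 471 tested) were chosen with earlier results of these data known. The alternatives were other scalings, filters, probe set rules and variance models, all 10 arrays in 1 fit, the replicate number as a block, and leaving out each array. Arrays of the other strain and of wild type gallbladder entered the normalization, the filter, the reference levels and the fits of all 10 arrays.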

Additional observations from a re-analysis of the deposited data

How the results depend on the processing

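The count of 0 genes in either direction held with the values as deposited, median centring, quantile normalization over the 4 arrays, either other filter on dim genes (none, or the 50th percentile), the mean over probe sets of each gene, every probe set by itself, no variance trend, robust empirical Bayes, and 10 arrays with weights by tissue (0.124 for duct, 1.69 for gallbladder). It moved to 621 higher and 444 lower genes with all 10 arrays in 1 fit and to 11 and 24 with array weights. A replicate block gave 121 and 214. The numbers are not known to pair the samples, and deviations of equal numbers correlated at r = 0.0889 over a single independent pair of deviations. Leaving out 1 array gave 0 to 2970 higher and 0 to 2443 lower genes. It was 2970 and 2443 without duct replicate 1, 992 and 1137 without duct replicate 2, 0 and 45 without Sox17+/- replicate 1, and 0 and 0 without Sox17+/- replicate 2. These fits take the spread of the remaining single array from the other group. In the fit of 10 arrays, a leave-one-out series chosen after seeing the data gave 66 and 46 without Sox17+/- replicate 1, 0 and 0 without Sox17+/- replicate 2, 3842 and 3204 without duct replicate 1, and 1745 and 1666 without duct replicate 2. The cause of these shifts was not tested.

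Among the 76 named genes, read by the same rule for probe sets or by their mean, only Sox17 changed sign under these settings, which held 71 of the genes at the 50th percentile and 74 with the mean. On single other probe sets the sign turned for some, among them Foxf1 (-0.12), Myh11 (-0.27), Klf5 (-0.49), Tpm2 (-0.38), Igfbp7 (-0.37), Nfkbia (-0.49) and Myl4 (-0.72). Of the 76, 61 passed with all 10 arrays, 16 with array weights and 36 with the block. Over all 14689 genes these settings called 621 higher and 444 lower, 11 and 24, and 121 and 214. All of the 76 but Sox17 were named by small p in these same arrays, so their counts are not independent support. Median differences over all genes were 0.035 as reported, 0.13 as deposited and 0.22 with median centring, and list medians move with them. Smaller differences in the duct are limited by its replicate spread.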

Other observations

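Endothelial genes, which mark blood vessels, had a median of 0.10 log2 over 19 genes (0.19 and -0.04 without duct replicate 1 or 2). The groups did not overlap in 7 higher (36.8%) and 6 lower genes (31.6%), against 25.1% and 19.7% of all genes. Vwf, von Willebrand factor, read 9.08 and 8.80 in Sox17+/- gallbladder and 6.85 and 6.11 in duct. The wild type gallbladder arrays read 8.41 and 8.50, below both Sox17+/- arrays and above both duct arrays. Against duct the Vwf difference was 2.46 (SE 0.38, limma adjusted p = 0.237). Tek, the angiopoietin receptor, read 8.72 and 8.68 against 7.59 and 7.45 (1.18, SE 0.28), and Emcn, the sialomucin endomucin of veins and capillaries, 9.92 and 9.83 against 7.82 and 8.99 (1.47, SE 0.41). Other endothelial genes lay on the opposite side, with the junction protein Cldn5 at 8.78 and 8.42 against 9.33 and 9.25 (-0.69, SE 0.25) and Egfl7, a secreted vessel protein, at 9.18 and 8.91 against 9.34 and 11.02 (-1.13, SE 0.54). Cldn5 and Egfl7 were chosen after their values were seen.

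Immediate early and heat shock genes, which can respond to handling of tissue, had a median of 0.24 log2 over 25 genes. Without overlap 12 were higher (48%) and 4 lower (16%), against 25.1% and 19.7% of all genes. Ccn2, connective tissue growth factor, read 10.31 and 10.18 in Sox17+/- gallbladder and 7.61 and 8.48 in duct (2.20, SE 0.34). The ICR wild type gallbladder arrays stood far apart, at 7.36 and 9.69, so their mean of 8.52 is a poor reference. In B6 the Ccn2 means were 9.98 in wild type and 9.99 in Sox17+/- gallbladder. The Krüppel-like factor Klf4 read 10.01 and 9.65 against 7.35 and 8.12 (2.10, SE 0.35; 2.42 on its other probe set), and Klf6 9.16 and 9.23 against 7.66 and 8.28 (1.23, SE 0.31). The classic early gene Fos read 8.53 and 7.81 against 6.92 and 8.11, with overlapping groups, and Egr1 stood at -0.28 (SE 0.23). Inflammation genes had a median of -0.13 over 19 genes, with 6 higher (31.6%) and 5 lower (26.3%) without overlap, against 25.1% and 19.7% of all genes. Their median was 0.09 and -0.16 without duct replicate 1 or 2, and 11 of the 19 lay below 0. The lowest was Lcn2, the neutrophil and epithelial protein lipocalin 2, at 8.75 and 5.76 in Sox17+/- gallbladder and 8.90 and 8.87 in duct (-1.63, SE 0.93). The 3 with the smallest p were higher. Nfkbia, an inhibitor of NF-kappaB, stood at 0.66 (SE 0.20; -0.49 to 0.93 on its other probe sets) and the alarmin Il33 at 1.36 (SE 0.42). The chemokine Ccl7 read 5.29 and 5.27 in Sox17+/- gallbladder against 4.80 and 3.59 in duct. The mean of its duct pair lay under the filter level of 4.46, so no size is given for its difference.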
